A study of Arabidopsis thaliana with 12 samples.

Results

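The comparison described here is warming to 26 °C in white light: the 3 arrays titled WL, 26°C against the 3 titled WL, 22°C, which are 6 of the 12 arrays of the series. They were chosen by their titles alone. The series asked how Arabidopsis thaliana seedlings respond to a change of light quality and a change of temperature, each alone and both together. All plants were wild type of the Columbia ecotype and had grown for 9 days at 22 °C under continuous white light, with no dark period. They then spent 24 h in white light at 26 °C, in white light at 22 °C, or under white light to which far-red was added (WFR) at either temperature. Aerial parts were collected when the plants were 10 days old, and total RNA was hybridised to 1-colour Affymetrix ATH1 arrays, 1 array for each biological replicate. The labels do not say how many plants entered a replicate, or whether they came from separate cultures, so p-values here measure the spread between these arrays. The supplemental far-red arrays served to estimate the spread and as the setting in which the white light differences were looked up again.

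A few degrees of warming, well below heat stress, is a growth signal for Arabidopsis. Phytochrome B loses its active form faster in warmth, the transcription factor PIF4 becomes more active, auxin synthesis genes such as the YUCCA genes are induced, and hypocotyls and petioles lengthen. Warmth is also known to lower cold-regulated transcripts, to damp salicylate-dependent defence and to induce a limited set of chaperones. Supplemental far-red light acts on the same phytochrome and, as a sign of neighbouring plants, sets off shade avoidance.

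Array medians ran from 6.91 to 6.98 on the log2 scale over the 6 white light arrays, and arrays of 1 group correlated across probe sets at 0.9953 or more, a description over genes that are not independent replicates. On the first principal component of these 6 arrays, with 38.3% of their variance, the WL 26 °C replicates scored 5.39, 10.42 and 15.67 and the WL 22 °C replicates -2.48, -8.65 and -20.36. The groups thus lay apart on it, and WL 22 °C replicate 3 lay farthest out. Of the light harvesting and Rubisco genes that mark green tissue, 4 of 25 had a named probe set, among them RCA, the activase of Rubisco, which averaged 14.46 at 26 °C and 14.44 at 22 °C. Of 14 root markers only the root hair expansins EXPA7 and EXPA18 were named, with means of 5.05 and 5.37 at 26 °C and 4.99 and 5.29 at 22 °C, and none of 6 flower and seed markers was named. No detection calls were used here, so whether such low values exceed background is not known. Of the 22746 probe sets tested, 13513 map to a single named gene, 503 to several and 8730 are unnamed here.

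Few probe sets passed the test for warming in white light, most of them with modest differences and more of them higher at 26 °C. How many pass depends on the number of arrays and the threshold, and is not a count of the transcripts changed. Of the probe sets tested, 139 (0.611%) differed at an adjusted p under 0.05 (limma, Benjamini-Hochberg over all probe sets), 103 (0.453%) higher and 36 (0.158%) lower at 26 °C. After subtraction of array medians the split was 76 higher and 47 lower, with rises making up 74.1% of the calls as deposited and 61.8% after the subtraction. An unadjusted p under 0.05 was reached by 2919 probe sets (12.8%). Differences were positive for 10324 of the 22746 probe sets and negative for 12422. The 3 values at 26 °C did not overlap the 3 at 22 °C for 18.6% of all probe sets, 8.31% with the higher values at 26 °C and 10.3% with the lower. The same held for all 139 calls, which passing the test makes likely and which is no separate result. The calls included 70 probe sets of a single gene (0.518% of such probe sets), 54 of them higher and 16 lower. In RNA of whole aerial parts, a lower value from fewer cells of a type and one from less RNA per cell cannot be told apart.

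The called rises had a median difference of 0.57 on the log2 scale, or 1.49-fold, and ran from 0.29 to 3.01. The 36 falls had a median size of 0.48, or 1.4-fold, and the largest was 1.29. At least 2-fold differences were found for 19 of the rises and 2 of the falls, while 53 rises and 28 falls were under 1.5-fold. By mean level over all 12 arrays, 0 rises and 1 fall lay in the lowest of 4 equal level classes, and 43 rises and 15 falls in the highest. The largest rises and falls belonged to unnamed probe sets. Probe set 266142_at read 8.92, 8.59 and 10.11 at 26 °C and 6.85, 5.96 and 5.79 at 22 °C, an 8.05-fold rise (limma, adjusted p = 0.0168), and 256245_at rose 5.09-fold (adjusted p = 3.16e-07). In the other direction, 245306_at and 258321_at changed by -1.29 and -1.01 (adjusted p = 0.00517 and 0.0102).

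**Figure D1:**
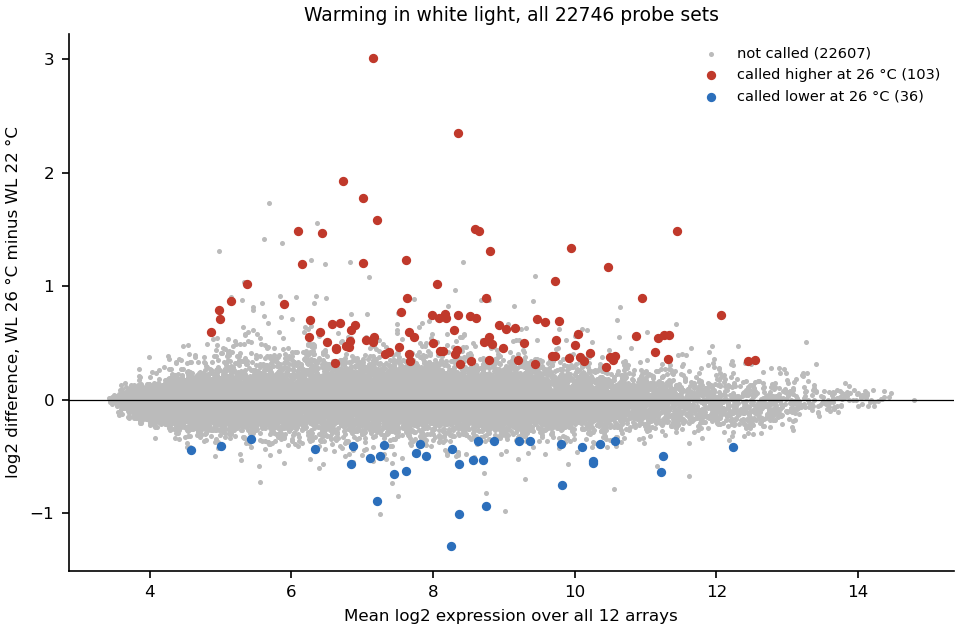
The log2 difference between WL 26 °C and WL 22 °C (vertical axis) is plotted for each of the 22746 probe sets against its mean log2 expression over all 12 arrays (horizontal axis). Red points are the 103 called higher at 26 °C, blue points the 36 called lower and grey points those not called; rises reach 3.01, while no fall exceeds 1.29 in size.

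Among single named genes, the largest rise was that of CSLA01, a member of the cellulose synthase-like A family whose enzymes make the mannan backbone of hemicellulose. It read 7.64, 8.20 and 8.53 at 26 °C and 7.10, 6.38 and 6.16 at 22 °C, a difference of 1.58 ± 0.263 (SE; limma, adjusted p = 0.0126). The groups did not overlap, but each spread over almost 1 log2 unit, with replicate 1 nearest to the other group on both sides. Its call was lost without WL 22 °C replicate 2 or 3 or WL 26 °C replicate 2 or 3 (adjusted p of 0.0566 to 0.0754). Under far-red light it differed by 1.12 (adjusted p = 0.0543).

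AT5G12110, from the list of translation elongation factors, had the lowest adjusted p among single genes. It read 10.60, 10.69 and 10.62 at 26 °C and 9.43, 9.32 and 9.14 at 22 °C, a 2.52-fold rise of 1.34 ± 0.0843 (limma, adjusted p = 1.88e-06). The 3 warm replicates lay within 0.1 of one another and more than 1 unit above every replicate at 22 °C. The other measured member of that list, AT5G19510, differed by -0.14 (adjusted p = 0.525), and 9 of the 11 listed loci have no named probe set here.

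AT4G19430, for which the annotation used here gives no function, read 6.16, 6.14 and 6.39 at 26 °C and 4.84, 4.78 and 4.62 at 22 °C (1.48 ± 0.19, limma, adjusted p = 0.0023). Under far-red light it read 7.49, 8.46 and 7.77 at 26 °C and 5.40, 5.75 and 5.33 at 22 °C. Its warming difference was 1.48 in white light and 2.42 under far-red light, and the difference between the lights, -0.93, had an unadjusted p = 0.00327 (limma, adjusted p = 0.902). AT3G28270 rose in white light, with 10.03, 10.19 and 10.30 at 26 °C and 9.23, 9.08 and 9.07 at 22 °C (1.05, adjusted p = 0.000759). Under far-red light AT3G28270 differed by 0.18 (adjusted p = 0.505) and the groups overlapped. The difference between the lights, 0.86, had an unadjusted p = 7.87e-05 (limma, adjusted p = 0.596). Its means at 22 °C were 9.13 in white light and 9.71 under far-red light, and at 26 °C 10.17 and 9.89.

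Of the 15 largest single-gene rises, the others in order were AT1G62510 (1.31), AT2G34810 (1.23), AT1G14120 (1.2), AT2G20560 (1.19), AT4G23680 (1.17), AT5G51440 (1.02), AT2G41380 (0.84) and AT2G46250 (0.77), beside AT4G17470 and the chaperone genes described below. The annotation used here gives these loci no symbol and no function. AT2G20560 had the lowest adjusted p of these 8 (0.00057), with 6.51, 7.0 and 6.85 at 26 °C and 5.50, 5.55 and 5.73 at 22 °C. AT4G23680 and its neighbour on chromosome 4, AT4G23670 (0.35), both rose, and so did the neighbours AT2G14900 (0.62) and AT2G14910 (0.56) on chromosome 2. AT1G62510 lost its call without any 1 of the 6 white light arrays, WFR 22 °C replicate 1 or WFR 26 °C replicate 3 (adjusted p of 0.0517 to 0.154). AT1G14120 lost its call without WL 22 °C replicate 2 (0.0633), AT4G23680 without that array or WL 26 °C replicate 2 or 3 (0.0534 to 0.0721), AT5G51440 without WL 22 °C replicate 1 or 2 or WL 26 °C replicate 2 or 3 (0.0557 to 0.0768), and AT2G41380 without WL 22 °C replicate 1 or 2 or WL 26 °C replicate 1 or 3 (0.0597 to 0.112).

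**Figure D2:**
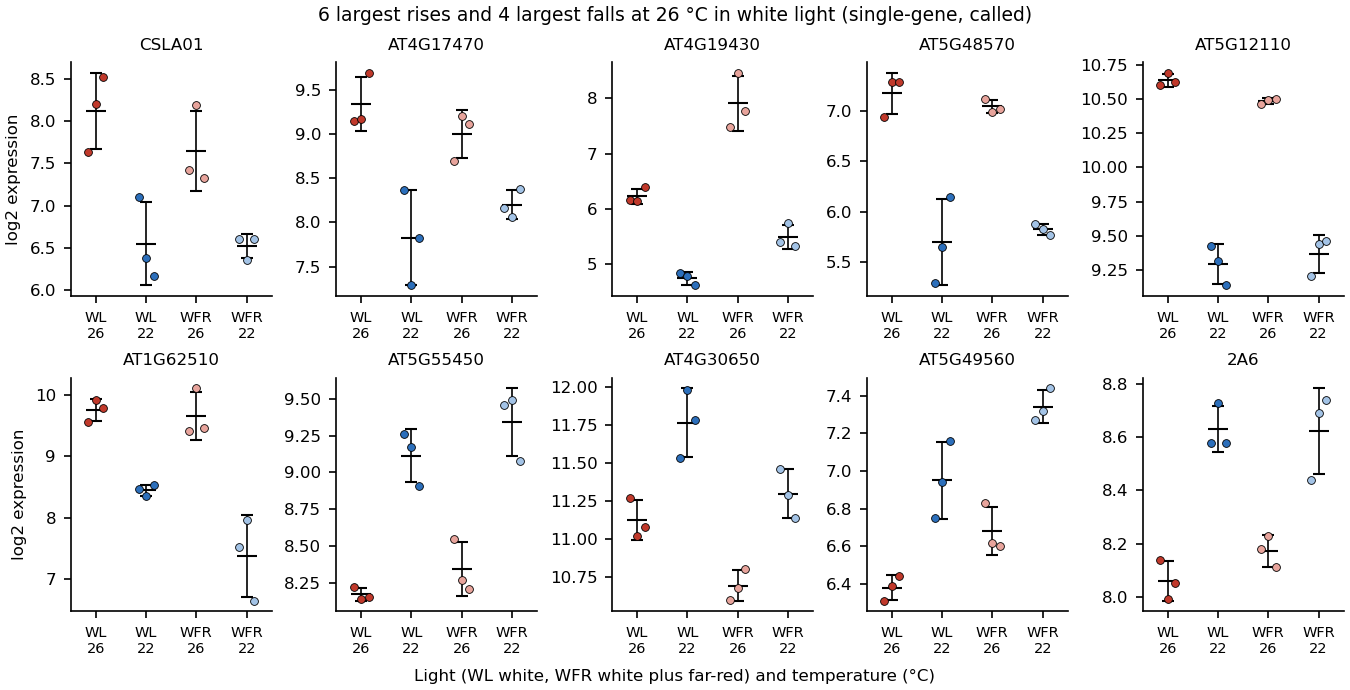
Log2 expression on every array (points) with the group mean and SD (bars, n = 3) for called single genes in white light, the top 6 rises and the top 4 falls, with WL 26 °C left of WL 22 °C and the far-red groups beside them. The genes were picked so that the 3 WL 26 °C points lie wholly above or wholly below the 3 WL 22 °C points. CSLA01, for example, is at 7.64 or more at 26 °C and 7.10 or less at 22 °C.

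Chaperones hold other proteins in a foldable state, and many of their genes are driven by heat shock factors. Of 27 heat shock and chaperone genes on the list, 8 had a named probe set. Of these, 2 rose and 0 fell, beside 0.453% called higher over all probe sets. Their median difference was 0.13, beside -0.01 over all probe sets. The first was AT5G48570, whose synonyms are ROF2 and FKBP65, a peptidyl-prolyl isomerase. It read 6.94, 7.29 and 7.29 at 26 °C and 5.30, 5.65 and 6.15 at 22 °C, a 2.77-fold rise (1.47 ± 0.159, limma, adjusted p = 0.000772). The second was Hop3, a co-chaperone that links HSP70 with HSP90, with 5.16, 5.56 and 5.45 at 26 °C and 4.54, 4.58 and 4.69 at 22 °C (0.79 ± 0.0985, adjusted p = 0.0023). Both rose under far-red light too, by 1.22 and 0.89, and both kept their call in white light whichever array was left out. The list median was 0.03, with 4 of 8 members positive, without WL 26 °C replicate 3. These counts cover listed genes only, and called genes outside the list were not checked for a chaperone function.

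The other 6 measured members of that list, named after their values were seen, had differences between -0.10 and 0.21. The small heat shock protein gene ATHSP22.0 read 4.66, 4.64 and 4.89 at 26 °C and 4.65, 4.63 and 4.86 at 22 °C, a difference of 0.02 ± 0.094. HSA32, needed for long-term acquired thermotolerance, differed by -0.03, Fes1A, a nucleotide exchange factor of HSP70, by 0.20 (adjusted p = 0.371) and AT1G53540 by 0.21 (adjusted p = 0.446).

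Cold-regulated genes encode proteins that protect membranes and chloroplasts in the cold and are switched on by the CBF factors. Of 22 on the list, 9 were measured, of which 1 fell and 0 rose, beside 0.158% called lower over all probe sets. Differences were negative for 8 of 9, with a median of -0.55, beside 12422 of 22746 probe sets. AT4G30650 read 11.27, 11.02 and 11.08 at 26 °C and 11.53, 11.98 and 11.78 at 22 °C (-0.64 ± 0.113, limma, adjusted p = 0.0195). Its neighbour in locus number, AT4G30660, differed by -0.10 (adjusted p = 0.647). The AT4G30650 call was lost without WL 22 °C replicate 2 or 3 or WL 26 °C replicate 2 or 3 (adjusted p of 0.0663 to 0.116). The list median was -0.29 without WL 26 °C replicate 2, and 3 members were called lower without WFR 26 °C replicate 1. With array weights 6 were called lower, in a setting that called 719 probe sets lower against 36 in the main fit.

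COR15A and COR15B, which encode chloroplast proteins that protect membranes on freezing, had lower values at 26 °C that did not pass the test. COR15A read 11.44, 11.47 and 11.34 at 26 °C and 12.19, 12.14 and 11.94 at 22 °C (-0.68 ± 0.177, limma, adjusted p = 0.109). COR15B read 11.16, 11.09 and 10.89 at 26 °C and 11.60, 11.80 and 11.49 at 22 °C (-0.58 ± 0.152, adjusted p = 0.109). In both, all 3 warm arrays lay below all 3 arrays at 22 °C. Without WFR 26 °C replicate 1, which enters only through the estimate of the spread, both were called (adjusted p = 0.025 and 0.0319), and COR15A was called in a fit of the white light arrays alone (0.019). COR27, which is both cold-regulated and clock-controlled, differed by -0.56 with overlapping groups, and LTI30, a dehydrin, by -0.55 ± 0.369. STZ, a zinc finger repressor of stress genes, was the only positive member (0.37, adjusted p = 0.397). Under far-red light all 9 members had negative differences, with a median of -0.44.

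**Figure D3:**
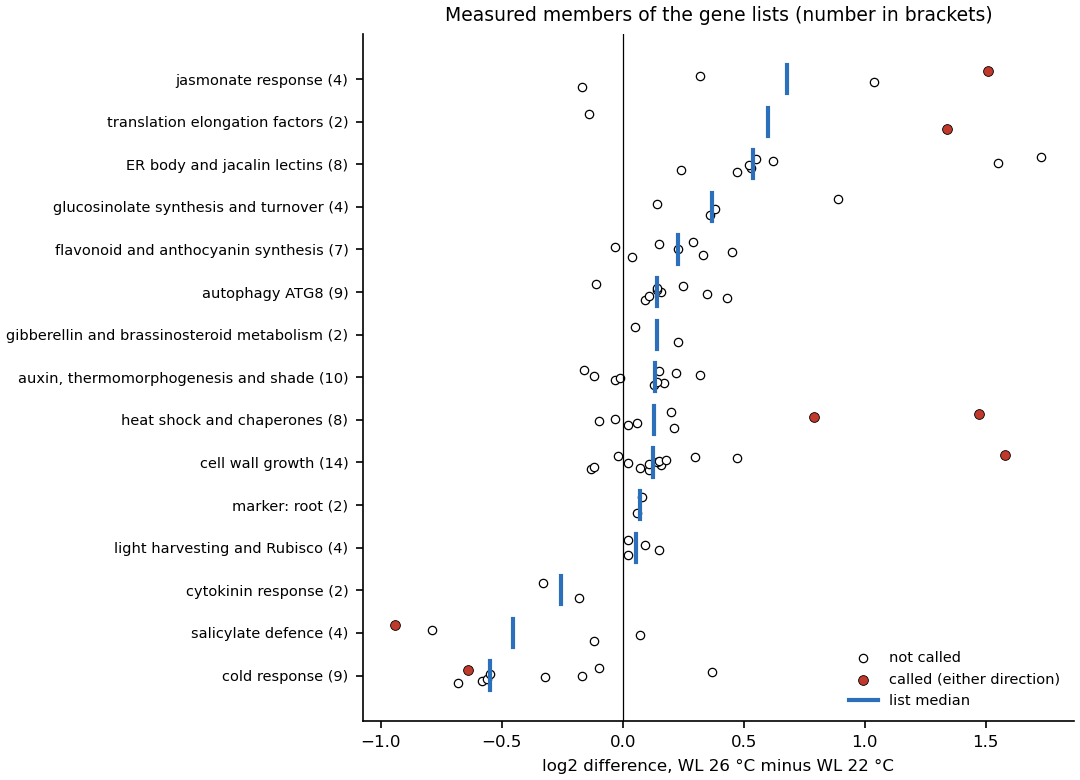
Each circle is the log2 difference between WL 26 °C and WL 22 °C (horizontal axis) of 1 measured member of a gene list, for the 15 lists with at least 2 measured members (number in brackets), ordered by their median (blue line). Filled circles passed the test in either direction: 2 among heat shock and chaperone genes and 1 each among the jasmonate, elongation factor, cell wall, salicylate and cold lists.

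The largest single-gene fall was that of AT5G55450, from the list of salicylate defence genes. It read 8.22, 8.14 and 8.15 at 26 °C and 9.26, 9.17 and 8.91 at 22 °C, a 1.92-fold lower level at 26 °C (-0.94 ± 0.119, limma, adjusted p = 0.0023), and the warm arrays lay within 0.1 of each other. Of 25 genes on that list, 4 were measured, with 1 fall, 0 rises and a median of -0.45, beside 0.158% called lower over all probe sets. AT5G03350 differed by -0.79 ± 0.314 (adjusted p = 0.304), with 10.05, 10.49 and 10.79 at 26 °C and 11.89, 10.82 and 10.98 at 22 °C. GRX480, a glutaredoxin that links salicylate with jasmonate signalling, differed by 0.07, and SAG101, a lipase-like partner of EDS1 in immune signalling, by -0.12. PR1, the usual marker of salicylate signalling, has no named probe set here.

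The next largest falls among single genes were AT4G30650 and 2A6, a gene of the 2-oxoglutarate-dependent dioxygenase family. The called probe set of 2A6 read 8.14, 7.99 and 8.05 at 26 °C and 8.58, 8.73 and 8.58 at 22 °C (-0.57, limma, adjusted p = 0.00599). Its second probe set read 5.58, 5.55 and 5.50 at 26 °C and 4.87, 5.43 and 5.19 at 22 °C, a difference of 0.38, so the probe sets of this gene disagree in sign. AT5G49560 (-0.57), AT1G30820 (-0.53), AT5G19210 (-0.50), AT1G55265 (-0.50), AT4G33720 (-0.44), AT1G49790 (-0.41) and AT3G29375 (-0.40) complete the 10 largest falls. Each of these 7 lost its call in some of the fits that left out 1 array. For AT3G29375 and AT5G49560 these were all fits without a white light array other than WL 22 °C replicate 1 (adjusted p of up to 0.122 and 0.0753), and for AT1G30820 those without replicate 2 or 3 of either white light group (up to 0.153). AT4G33720 lost its call without replicate 3 of WL 26 °C (0.0856) or WL 22 °C (0.0538), and AT5G19210 without WL 26 °C replicate 1 or 3 (0.065 and 0.0832). AT1G49790 kept its call only without WFR 22 °C replicate 3 (up to 0.178 otherwise). AT1G55265 kept its call without WL 22 °C replicate 2, WFR 22 °C replicate 3 or WFR 26 °C replicate 2 only (up to 0.137 otherwise), and lost it with upper quartile scaling (0.0544) and cyclic loess (0.0551).

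Jasmonate is a wound and insect signal. Of 23 jasmonate response genes, 4 were measured and 1 rose, beside 0.453% called higher over all probe sets. The riser, AT4G17470, read 9.15, 9.17 and 9.69 at 26 °C and 8.37, 7.29 and 7.83 at 22 °C (1.51 ± 0.222, limma, adjusted p = 0.00601). The groups did not overlap, the values at 22 °C spread over about 1 unit, and the call was lost in a fit of the white light arrays alone (adjusted p = 0.0578). The list median of 0.68 rests on few genes that vary between replicates, and was 0.32 without WL 26 °C replicate 3. THI2.1, a thionin, read 5.57, 4.89 and 7.48 at 26 °C and 5.43, 4.45 and 4.93 at 22 °C, so that 1 warm array carries its difference of 1.04 (adjusted p = 0.442). PDF1.2, a defensin, differed by -0.17 ± 0.788.

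ER bodies are compartments of the endoplasmic reticulum in Brassicaceae that store the beta-glucosidase PYK10, and jacalin-related lectins aggregate with it when cells break. None of the 8 measured genes of that list, of 19 written, was called (limma, adjusted p of 0.0809 to 0.24). Yet all 8 had positive differences, with a median of 0.54, beside 10324 of 22746 probe sets. In 7 of 8 the warm arrays lay wholly above the others, beside 8.31% over all probe sets. The list was chosen with earlier results of these data known, so these counts are a description. The genes named from this list were chosen after their values were seen. PYK10 read 12.05, 12.09 and 12.28 at 26 °C and 11.75, 11.49 and 11.77 at 22 °C (0.47 ± 0.113, adjusted p = 0.0862). NAI2, which is needed for ER bodies to form, read 9.42, 9.70 and 9.85 at 26 °C and 9.11, 8.89 and 9.39 at 22 °C (0.53 ± 0.123, adjusted p = 0.0809). Its warm arrays lay above the others by as little as 0.03.

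NAI1, the bHLH factor that controls ER body genes, was the member whose groups overlapped (0.24 ± 0.0861). The lectin genes JAL22, JAL33 and JAL34 differed by 0.52, 0.62 and 0.55, and JAL23 by 1.55 ± 0.464 with values at 26 °C of 6.54, 6.70 and 8.31 and at 22 °C of 5.89, 5.55 and 5.47. WL 26 °C replicate 3 was the highest of the 6 arrays for 7 of these 8 genes. The list had 8 called members when arrays were weighted by their scatter about the group means, a setting that called 895 probe sets higher against 103 in the main fit. With a spread that depends on level it had 4, where 151 probe sets were called higher. Leaving out 1 array gave 2 called members without WL 22 °C replicate 3, and 1 without replicate 1 of WL 26 °C, replicate 2 of WFR 26 °C or replicate 3 of WFR 22 °C. PYK10 is abundant in roots, and the 2 measured root markers differed by 0.06 and 0.08; their part in the result was not tested.

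Under far-red light the list had a median warming difference of 0.16 and 0 called members. The difference between the lights had unadjusted p = 0.00982 for JAL34, 0.0112 for NAI2 and 0.0244 for PYK10, and after adjustment over all probe sets 0.902 for each (limma, interaction).

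**Figure D4:**
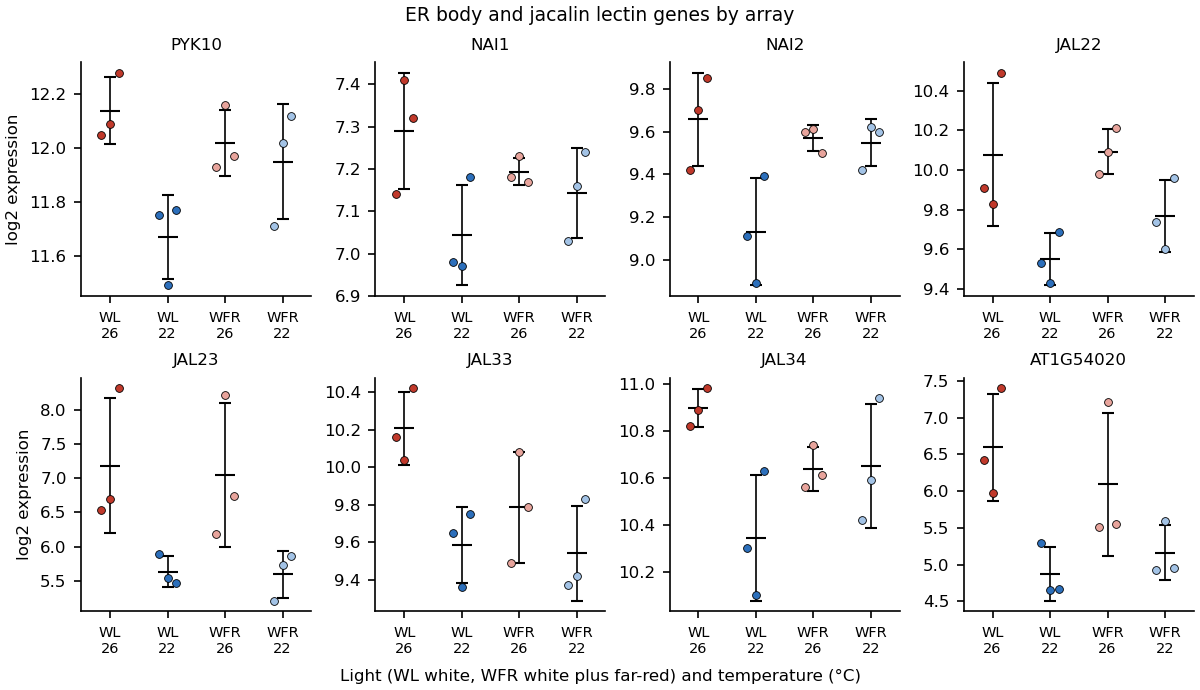
Log2 expression of the 8 measured ER body and jacalin lectin genes on every array (points) with the group mean and SD (bars, n = 3), WL 26 °C left of WL 22 °C, and the same under supplemental far-red (WFR). All 8 have a higher mean at 26 °C in white light, the groups overlapping for NAI1; under far-red, NAI2, JAL34 and PYK10 differ by 0.02, -0.01 and 0.07.

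Glucosinolates are the sulphur-rich defence compounds of this plant family. All 4 measured genes of 31 listed had positive differences with a median of 0.37, beside 10324 positive of 22746 probe sets. Of these 4, 0 were called (limma, lowest adjusted p = 0.0969), with 1 called without WL 22 °C replicate 1. UGT74B1, a glucosyltransferase of glucosinolate synthesis, read 10.37, 10.55 and 10.69 at 26 °C and 10.33, 10.09 and 10.05 at 22 °C (0.38 ± 0.0941). BCAT4, an aminotransferase that starts the elongation of methionine side chains, differed by 0.36 ± 0.103 (adjusted p = 0.145) and its lowest warm value equalled the highest value at 22 °C to 2 decimals. BGLU28, a beta-glucosidase induced by sulphur deficiency, read 8.74, 8.33 and 8.60 at 26 °C and 7.63, 8.08 and 7.29 at 22 °C (0.89 ± 0.25, adjusted p = 0.136). These genes were named after their values were seen.

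None of the 10 measured genes of 28 written for auxin, thermomorphogenesis and shade was called, and their median difference was 0.13, or 0.08 without WL 22 °C replicate 2. IAA29, an auxin-inducible Aux/IAA repressor, read 6.23, 6.18 and 5.75 at 26 °C and 5.78, 5.80 and 6.08 at 22 °C (limma, adjusted p = 0.733), with overlapping groups. YUC2, a YUCCA enzyme of auxin synthesis, read 6.25, 6.10 and 6.19 at 26 °C and 5.96, 5.98 and 6.22 at 22 °C (0.13 ± 0.0766, 95% interval -0.04 to 0.29, adjusted p = 0.533). The largest member difference was 0.32 ± 0.114 for WES1, which inactivates auxin by joining it to amino acids (adjusted p = 0.237). PIF4, YUC8, HSP101, HSP70, PR1, FT and ELF4 were to be reported whatever their values and have no named probe set here.

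Cell wall growth genes include expansins, which loosen walls, and xyloglucan endotransglucosylases, which cut and rejoin hemicellulose. Of 34 written, 14 were measured and CSLA01 rose, beside 0.453% called higher over all probe sets. The median was 0.12, with 11 of 14 positive, beside 10324 of 22746 probe sets. Without WL 22 °C replicate 3 the median was 0.0, with 7 of 14 positive. The expansins EXPA4, EXPA8, EXPA9 and EXPA15 differed by 0.11, -0.13, 0.07 and -0.12, each by less than 1.5 times its SE. XTH18 had the largest difference after CSLA01 (0.47 ± 0.172, limma, adjusted p = 0.255). GI, the only measured clock gene of 16, read 8.13, 7.88 and 7.57 at 26 °C and 7.52, 7.89 and 8.24 at 22 °C (-0.03, adjusted p = 0.97). The cytokinin-induced response regulators ARR15 and RR16 differed by -0.18 and -0.33, and the gibberellin receptors GID1A and GID1B by 0.23 and 0.05, with 0 of either pair called. None of the 9 abscisic acid response genes and 7 fatty acid desaturase genes written had a named probe set.

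None of the 4 measured light harvesting and Rubisco genes passed the test. They differed by 0.02 to 0.15, and LHCB4.2, a minor antenna protein of photosystem II, had the largest of these (0.15 ± 0.0708, limma, adjusted p = 0.407). Of 69 measured genes of the chloroplast genome 0 were called, 42 had positive differences and the median was 0.04. Over all probe sets, 10324 of 22746 had positive differences and the median was -0.01. PGRL1B, a nuclear gene for a component of cyclic electron flow around photosystem I, rose by 0.58 (adjusted p = 0.0104).

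PGRL1B is 1 of 8 called genes that carry a symbol in the annotation; 5 of these fall outside the naming rule and were named after their values were seen. The others of the 5 were CP5, which rose by 0.75 (limma, adjusted p = 0.0012), ARD4, an acireductone dioxygenase of methionine salvage (0.56, 0.0225), ALC, the bHLH factor ALCATRAZ known from fruit opening (0.47, 0.0301), and F2KP, the bifunctional kinase and phosphatase that sets the level of the regulator fructose bisphosphate (-0.39, 0.0112).

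The ATG8 proteins coat the membranes of autophagosomes, and all 9 genes of the family were measured. In white light 8 of 9 had positive differences with a median of 0.14, beside 10324 positive of 22746 probe sets. Of the 9, 0 were called (limma, lowest adjusted p = 0.0778). ATG8B read 7.27, 7.39 and 7.77 at 26 °C and 7.07, 7.0 and 7.08 at 22 °C (0.43 ± 0.111). ATG8D read 8.54, 8.66 and 8.61 at 26 °C and 8.32, 8.31 and 8.14 at 22 °C (0.35 ± 0.0801). In both the groups did not overlap, while APG8H, with a difference of -0.11, lay wholly lower at 26 °C. These 3 were named after their values were seen.

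Flavonoid and anthocyanin synthesis genes had 6 of 7 measured members with positive differences in white light (median 0.23) and 0 of 7 under far-red light (median -0.21), with 0 called in either light. Over all 22746 probe sets, 10324 had positive differences in white light and 11637 under far-red light. DFR, the dihydroflavonol reductase at the branch to anthocyanins, read 11.28, 11.59 and 11.00 at 26 °C and 11.22, 10.89 and 10.76 at 22 °C in white light. Its warming difference was 0.33 in white light and -0.31 under far-red light, with an unadjusted p of 0.0138 for the difference between the lights (limma, adjusted p = 0.902). Its groups overlapped in white light, as did those of the other 6 members. The white light median was 0.46 without WL 22 °C replicate 1, 0.11 without WL 22 °C replicate 3 and 0.13 without WL 26 °C replicate 2.

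The warming response was then looked up in the 6 arrays with supplemental far-red light, which share none of the arrays behind the white light differences. Their spread did enter the test, so the calls favour probe sets with a small spread under far-red light. Groups that do not overlap there are therefore a description. There 250 probe sets were called (1.1%), 127 higher (0.558%) and 123 lower (0.541%). Of the 139 white light calls, 136 (97.8%) had the same sign under far-red light, beside 61.5% of all probe sets. For 84 of the 103 rises the far-red arrays at 26 °C lay wholly above those at 22 °C, beside 9.75% of all probe sets, and for 30 of the 36 falls wholly below, beside 9.67%. In 0 did they lie wholly on the opposite side.

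Most white light calls were smaller under far-red light, 91 of the 103 rises and 27 of the 36 falls. The rises had a median difference of 0.57 in white light and 0.39 under far-red light, and the falls a median size of 0.48 in white light and a median difference of -0.40 under far-red light. The calls were selected on the white light values, so these sizes are a description. The test of the difference between the warming effects (limma interaction) called 0 probe sets (lowest adjusted p = 0.0891), and 1254 (5.51%) had an unadjusted p under 0.05. Among the 139 calls, 44 had an unadjusted interaction p under 0.05. The white light difference that selected these calls is part of the interaction, which raises that count, so it does not test whether the lights differ. A call in both lights, in the same direction, was made for 59 probe sets; these calls share the estimate of the spread.

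**Figure D5:**
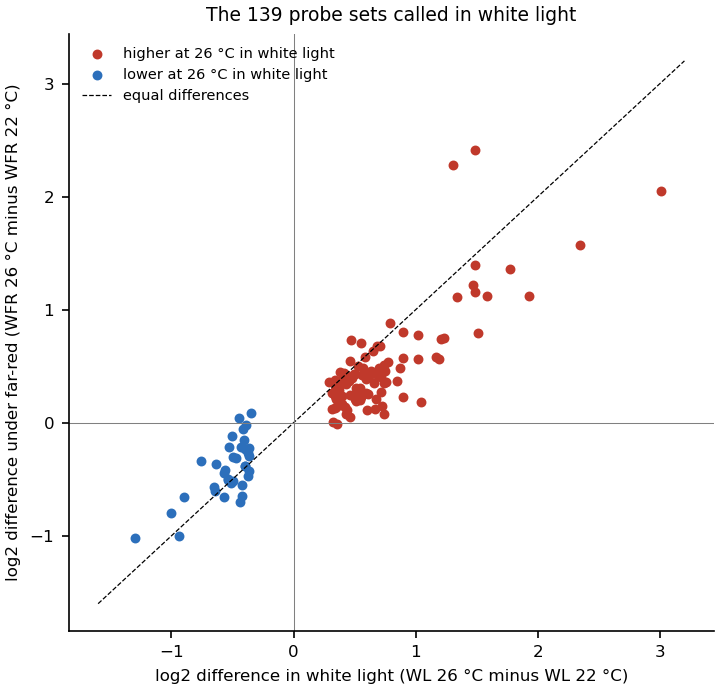
For each of the 139 probe sets called in white light, the log2 difference between 26 and 22 °C under far-red (vertical axis) is plotted against that in white light (horizontal axis), with a dashed line where they are equal. Red points are the 103 rises and blue points the 36 falls; 136 points have the same sign on both axes, and 118 have a smaller size under far-red.

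The 5 named genes with the lowest interaction p were AT3G28270, AT2G20830, AT2G15960, AT1G27670 and AT4G33720, and none passed the test. AT3G28270 had the lowest, with an interaction of 0.86 (unadjusted p = 7.87e-05; limma, adjusted p = 0.596). AT2G20830 differed by -0.05 in white light and by -0.59 under far-red light, and AT2G15960 by 0.23 and 0.78. AT1G27670 had opposite signs, -0.26 in white light, with 4.67, 4.74 and 4.81 at 26 °C and 4.96, 5.08 and 4.99 at 22 °C, and 0.19 under far-red light. AT4G33720 differed by -0.44 in white light, where it fell, and by 0.05 under far-red light. For the interaction, all but AT3G28270 had a limma adjusted p = 0.902.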

How the data were processed

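The deposited table holds log2 expression per probe set for all 12 arrays. Per the submitters' processing notes, RMA, affy and MAS5 were used; which of them gave the deposited values, and the versions, are not given in the sources used here. No scanner files were used. The 64 control probe sets were left out. Probe sets were named through the platform annotation, updated with RefSeq TAIR10.1 gene records (13436 matched, 77 kept the platform name); a gene with several probe sets is represented in lists by the one with the highest mean.

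The fit gave each of the 4 groups its own mean and took in all 12 arrays (limma 3.58.1 under R 4.3.3, lmFit and eBayes with no trend; 8 residual and 5.99 prior degrees of freedom). Two-sided p-values were adjusted by Benjamini-Hochberg over 22746 probe sets, with calls at an adjusted p under 0.05. Errors of differences are standard errors.

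Named genes were the top 15 rises and top 10 falls of called single-gene probe sets whose groups do not overlap, up to 4 called members of each of 19 gene lists (359 loci, 90 measured), 5 interaction genes and 12 fixed genes. Members, lists and tests were chosen with earlier results of these data known. Alternatives were 4 scalings, 2 filters on low levels, array weights, a trended spread, a replicate block, the white light arrays alone and leaving out each array. The fit was tested on simulated data. The number of arrays limits the precision. Promoter sequences were not analysed here.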

Additional observations from a re-analysis of the deposited data

How the results depend on the processing

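The 139 calls (103 higher, 36 lower) became 123 (76 and 47) with array medians subtracted, 126 (93 and 33) with upper quartiles subtracted, 125 (86 and 39) with quantile normalisation and 137 (102 and 35) with cyclic loess, and 107 of the 139 stayed called under all 4. Array weights, estimated from the scatter about the group means, gave 1614 calls (895 and 719) and 2 interaction calls in place of 0. These weights were 3.37 for WL 22 °C replicate 2 and 2.7 for WL 26 °C replicate 2. The other white light arrays had 0.44 to 0.92, so 1 array of each group dominated. A trended spread gave 217 (151 and 66), and leaving out the lowest 50% of probe sets 220 (147 and 73). Fitting the white light arrays alone gave 57 (46 and 11), of which 49 were among the 139. Leaving out 1 array gave 44 to 152 calls, 35 to 112 higher and 9 to 45 lower. The count was 61 without WL 22 °C replicate 2, 86 without WL 22 °C replicate 3, 58 without WL 26 °C replicate 2 and 44 without WL 26 °C replicate 3, and without WL 26 °C replicate 1 there were 22 falls. Of the 139, 39 stayed called whichever array was left out, 33 higher and 6 lower. The interaction had 0 calls under every other setting that could test it.

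Of the 25 named and called genes, AT4G19430, AT5G48570, AT5G12110, AT2G34810, AT2G20560, AT3G28270, Hop3, AT2G46250, 2A6 and AT5G55450 kept their call under every alternative that tested them (21 or 22 of them for each gene). GI, which was not called, changed sign without WL 22 °C replicate 3 (0.15) and without WL 26 °C replicate 3 (0.12), and ranged from -0.21 to 0.15 over the fits that left out 1 array. With the white light arrays alone, CSLA01, AT4G17470, AT1G14120, AT4G23680, AT5G51440 and 8 of the 10 largest falls lost their call (adjusted p of 0.0578 to 0.139).

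The labels do not say whether a replicate number marks a shared batch. Deviations of same-numbered arrays from their group means correlated at -0.125, 0.12 and 0.0587, and those of differently numbered arrays at -0.166 to 0.0793. Deviations within a group cancel out, so these correlations cannot settle whether the numbers pair the arrays. With the number as a block, 88 probe sets were called (70 and 18), which says nothing of a weaker effect.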

Other observations

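Calls of single genes lay on every nuclear chromosome, beside 0.518% called over all single-gene probe sets. Chromosome 1 had 11 higher and 6 lower among 3451 probe sets, and chromosome 2 had 11 and 1 among 2200. Chromosome 3 had 12 and 2 among 2746, chromosome 4 had 9 and 3 among 1962, and chromosome 5 had 10 and 4 among 3008. Differences between chromosomes were not tested.

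Among rises outside the 15 largest, chosen after their values were seen, AT2G19310 (0.52, limma, adjusted p = 0.00101), AT1G06640 (0.70, adjusted p = 0.00361), AT3G48460 (0.50, adjusted p = 0.00361) and AT1G67860 (0.48, adjusted p = 0.00361) stayed called whichever array was left out. The annotation used here gives these loci no symbol.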
